A study of Mus musculus with 24 samples.

Results

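Cytokine and death ligand genes were followed in single NK1.1+CD3e+ cells of the mouse liver. The 10 genes, chosen by symbol from the 24447 genes of the count matrix, were Il4, Ifng, Tnf, Il2, Cd40lg, Ltb, Mif, Fasl, Tnfsf10 and Csf2. All 10 were found in all 3 genotypes. The cells came from mice aged 8 to 10 weeks, with no treatment named, and the genotypes were wild type (WT), Jα18-/- (Jα18-deficient) and CD1d-/- (CD1d-deficient). The WT mice were purchased C57BL/6 mice. The deficient mice were originally obtained from another laboratory, and the paper's methods state no strain for them, so the source differed with genotype. Jα18-deficient mice lack a T cell receptor segment that type I NKT cells need, while CD1d-deficient mice lack the molecule on which type I and type II NKT cells are selected. The authors give as limits of these models that the original Jα18 deletion took other Jα elements with it and that Cd1d2 was left in place in the CD1d-deficient mice. Livers were perfused, cells were sorted by both surface proteins, and the cells, taken 1 by 1 by hand, were sequenced so that each transcript carried a unique molecular identifier (UMI). NKT cells without NK1.1 are not in the sort, and the number and sex of the mice are not given in the sources used here. The labels give 24 libraries, 8 per genotype, but a cell carries only its genotype and a number. The cells of a genotype were therefore 1 pool, genotypes were compared without a test, and all intervals (95%) cover counting error only. The pools held 623 WT, 725 Jα18-deficient and 387 CD1d-deficient cells, with 34102694, 60484252 and 14536585 UMIs.

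NKT cells are known for releasing several cytokines within a short time of activation, because they carry ready transcripts of some cytokine genes at rest. Il4 encodes the cytokine that drives type 2 responses and IgE switching, and Ifng encodes the macrophage-activating cytokine of type 1 responses. Tnf and Ltb encode inflammatory and lymphoid tissue-forming ligands of the TNF family, Cd40lg the ligand by which T cells license B cells and dendritic cells, and Fasl and Tnfsf10 (TRAIL) ligands that trigger cell death. Il2 encodes a T cell growth factor, Csf2 the myeloid growth factor GM-CSF, and Mif a widely expressed inflammatory mediator. In the annotation of the NCBIM37 build (mm9), Il4 lay on chromosome 11 at 53416484 to 53432171 on the minus strand, and Csf2 lay on the same chromosome at 54060773 to 54063169. Ltb (chromosome 17, 35331384 to 35333265) and Tnf (35336326 to 35338952) were neighbours on opposite strands, followed by Lta. Ifng lay on chromosome 10 at 117878103 to 117882948, Il2 on chromosome 3 at 37019445 to 37024881 and Cd40lg on chromosome X at 54465320 to 54477219.

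Inducible cytokine genes are known targets of NFAT, the factor that calcium signalling brings to the nucleus. The 250 bases before the start are shown for the genes whose levels differed most between pools, where a sequence was to hand, and for Ifng, whose pool levels had overlapping neighbours. They are RefSeq promoters of the GRCm38.p6 build, read 5′ to 3′ on the gene's strand. Capitals mark GGAAAA, the letters searched here as an NFAT core, on either strand (TTTTCC on the printed one). The shorter GGAAA was not searched and is not marked. RefSeq promoters matched 9 of the 10 genes, all but Cd40lg. The windows are chr11:53618666-53618915 for Il4, chr3:37125955-37126204 for Il2 and chr17:35202008-35202257 for Tnf, all on the minus strand, and chr10:118440796-118441045 on the plus strand for Ifng.
Il4: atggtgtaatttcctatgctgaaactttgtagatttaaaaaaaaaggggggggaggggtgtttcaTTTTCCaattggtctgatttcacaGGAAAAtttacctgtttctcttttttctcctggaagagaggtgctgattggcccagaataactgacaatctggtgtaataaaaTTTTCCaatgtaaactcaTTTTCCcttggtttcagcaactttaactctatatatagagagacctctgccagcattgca
Il2: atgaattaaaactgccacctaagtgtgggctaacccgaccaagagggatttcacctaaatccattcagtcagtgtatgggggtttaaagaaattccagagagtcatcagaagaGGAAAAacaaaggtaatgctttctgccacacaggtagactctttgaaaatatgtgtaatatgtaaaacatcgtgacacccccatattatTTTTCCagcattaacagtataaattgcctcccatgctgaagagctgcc
Tnf: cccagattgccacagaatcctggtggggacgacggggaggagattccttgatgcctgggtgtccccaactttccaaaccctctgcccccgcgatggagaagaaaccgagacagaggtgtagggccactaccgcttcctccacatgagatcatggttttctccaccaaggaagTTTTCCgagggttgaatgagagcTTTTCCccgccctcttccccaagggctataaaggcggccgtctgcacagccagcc
Ifng: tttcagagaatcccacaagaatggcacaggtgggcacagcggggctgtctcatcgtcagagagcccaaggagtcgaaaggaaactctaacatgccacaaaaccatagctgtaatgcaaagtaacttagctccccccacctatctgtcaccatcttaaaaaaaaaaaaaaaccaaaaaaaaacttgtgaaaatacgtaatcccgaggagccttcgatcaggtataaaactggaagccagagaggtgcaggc

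The Il4 window held 4 matches to GGAAAA, the Il2 and Tnf windows held 2 each, and the Ifng window held none. On either strand the shorter GGAAA, which was not counted, occurs in the Ifng window and in those of Ltb, Mif, Tnfsf10 and Csf2. Of 32851 promoter windows of the same length, 20.4% held at least 1 match, 2.85% at least 2 and 0.0396% at least 4. Fasl held 1 match, so 4 of the 9 genes had GGAAAA, while a second RefSeq start of Il4, at chr11:53617339-53617588, had none. The AP-1 letters TGANTCA, also searched on both strands, were in none of the windows of the 9 genes and in 6.75% of all windows. A match describes letters and not a bound site.

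The sort was checked on the transcripts. The summed level of 5 T cell genes (Cd3e, Cd3d, Cd3g, Lat and Lck) was 4874 to 4972 CPM in the 3 pools, where CPM is the UMIs of a gene per 1000000 UMIs of the pool, and Klrb1c, which encodes NK1.1, was found in 84.5% to 89.1% of cells. Shares of cells are given at equal depth throughout, after each cell with at least 10000 UMIs was thinned to 10000. This dropped 353 cells, of which 100 were WT, 93 Jα18-deficient and 160 CD1d-deficient. The median cell before thinning had 40467, 46670 and 13508 UMIs. The shares thus describe the deeper cells, and the CD1d-deficient pool lost the most. Left were 523 WT, 632 Jα18-deficient and 227 CD1d-deficient cells. Zbtb16, the NKT lineage factor PLZF, was found in 13.8%, 8.23% and 3.96% of these cells. A UMI of any of 6 myeloid genes was found in 30.8% (WT), 14.4% (Jα18-deficient) and 94.3% (CD1d-deficient) of cells, and the median CD1d-deficient cell held 4 of them. Lyz2 carried most of it, at 77.3, 14.7 and 588 CPM. At least 1 UMI of 6 hepatocyte genes was in 5.16%, 1.27% and 0.881% of cells. Erythroid and platelet genes were at or near 0, and B cell genes summed to 6.07 to 14.4 CPM. All sorted cells are meant to be T cells, so the data hold no cell type that should lack these cytokines.

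Il4 and Cd40lg were the members with the largest spread between genotypes. Il4 stood at 149.5 CPM in WT cells (interval 145 to 154), 75.3 CPM in Jα18-deficient cells (73.2 to 77.6) and 35.4 CPM in CD1d-deficient cells (32.4 to 38.6). The 3 intervals were apart, in the order WT, Jα18-deficient, CD1d-deficient. The share of cells with Il4 was 38.2% in the WT pool (interval 34.1% to 42.6%), 21.4% in the Jα18-deficient pool (18.2% to 24.8%) and 3.52% in the CD1d-deficient pool (1.53% to 6.83%). That last share was 8 of 227 cells, in a pool where hepatocyte genes were found in 0.881%, B cell genes in 5.73% and myeloid genes in 94.3% of cells. A single cell held 272 of the 514 Il4 UMIs of the CD1d-deficient pool, and without the highest cell of each pool the Il4 levels were 143.6, 68.0 and 16.6 CPM.

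Cd40lg followed the same order, at 218 CPM in WT cells (interval 213 to 223), 111 CPM in Jα18-deficient cells (108 to 113) and 48.0 CPM in CD1d-deficient cells (44.5 to 51.7). It was found in 42.8% (interval 38.5% to 47.2%), 25.8% (22.4% to 29.4%) and 13.2% (9.10% to 18.3%) of cells. No cell dominated Cd40lg in WT or Jα18-deficient cells, where the highest one held 5.56% and 5.35% of its UMIs. In CD1d-deficient cells the highest one held 15.9%.

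Il2 had the opposite order over whole pools. Its level was 13.7 CPM in WT cells (interval 12.5 to 15.0), 20.1 CPM in Jα18-deficient cells (19.0 to 21.3) and 42.0 CPM in CD1d-deficient cells (38.8 to 45.5). The share with Il2 was 4.02% in WT (interval 2.502% to 6.07%), 6.96% in Jα18-deficient (5.10% to 9.23%) and 15.0% in CD1d-deficient cells (10.6% to 20.3%). The WT and Jα18-deficient shares had overlapping intervals, and the CD1d-deficient share was above both. In the Jα18-deficient pool 1 cell held 385 of 1217 Il2 UMIs, and without the highest cell of each pool the levels were 10.9, 13.8 and 36.6 CPM. Within the cell classes described further on, Jα18-deficient cells were below WT in CPM, at 5.18 against 7.11 CPM and 30.9 against 49.3 CPM. Single cells held 41 of 88 and 76 of 170 UMIs in the first class, and 385 of 1036 and 95 of 288 in the second. The shares with Il2 were 2.58% against 2.89% and 10.7% against 9.71%, with overlapping intervals.

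**Figure D1:**
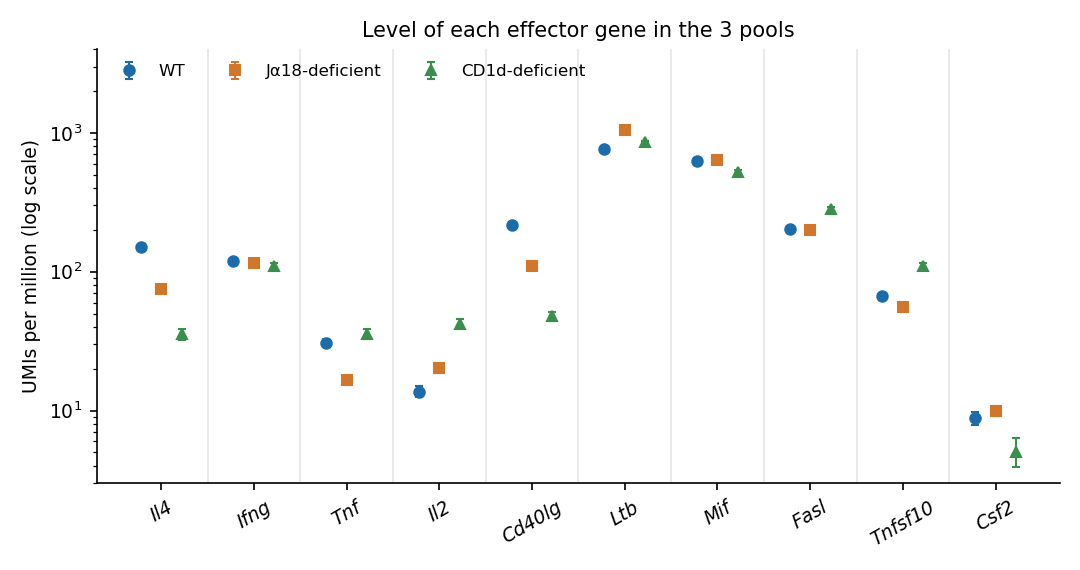
Level of the 10 genes in WT, Jα18-deficient and CD1d-deficient cells, as CPM of the pool on a log axis, with exact Poisson 95% intervals. Il4 and Cd40lg descend from WT to CD1d-deficient cells, Il2 ascends, and Ifng stays between 110.3 and 120.0 CPM.

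Ifng was at 120.0 CPM in WT cells (interval 116 to 124), 115.2 CPM in Jα18-deficient cells (113 to 118) and 110.3 CPM in CD1d-deficient cells (105 to 116). Neighbouring pools in this order overlapped. It was found in 27.7% (interval 23.9% to 31.8%), 21.8% (18.7% to 25.3%) and 20.3% (15.2% to 26.1%) of cells, again with overlap between neighbours. The 10 highest cells held 33.2%, 44.9% and 61.7% of the Ifng UMIs of their pools, which was most of the message in the CD1d-deficient pool only. With each cell weighted equally the Ifng levels were 137 CPM in WT, 87.6 CPM in Jα18-deficient and 97.4 CPM in CD1d-deficient cells.

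Tnf was at 30.8 CPM in WT cells (interval 29.0 to 32.8), 16.6 CPM in Jα18-deficient cells (15.6 to 17.7) and 35.6 CPM in CD1d-deficient cells (32.6 to 38.8). The WT and CD1d-deficient intervals overlapped slightly, and the Jα18-deficient level was below both. The shares of cells did not follow the CD1d-deficient level, at 11.1% (interval 8.53% to 14.1%), 7.44% (5.52% to 9.77%) and 6.61% (3.75% to 10.7%). The highest cell held 144 of the 518 Tnf UMIs of the CD1d-deficient pool, and the 10 highest held 88.0%. Csf2 had the fewest UMIs of the members in each pool, at 8.80, 9.94 and 5.02 CPM. It was found in 4.59%, 3.32% and 3.96% of cells with overlapping intervals, and at most 145 UMIs were seen in a cell.

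Of the death ligands, Fasl was at 202, 201 and 283 CPM in WT, Jα18-deficient and CD1d-deficient cells. Its shares overlapped, at 50.9% (interval 46.5% to 55.2%), 45.3% (41.3% to 49.2%) and 48.0% (41.4% to 54.7%). Tnfsf10 was at 66.8 CPM (interval 64.1 to 69.6), 55.5 CPM (53.6 to 57.4) and 109.6 CPM (104 to 115.1). It was found in 19.5% (interval 16.2% to 23.2%), 14.4% (11.8% to 17.4%) and 26.4% (20.8% to 32.7%) of cells, so the Jα18-deficient and CD1d-deficient shares were apart while WT overlapped with each. Ltb and Mif were found in most cells. Ltb was at 764, 1056 and 854 CPM in 91.2%, 90.3% and 85.5% of cells, and Mif was at 630, 643 and 526 CPM in 76.1%, 79.7% and 68.7% of cells.

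**Figure D2:**
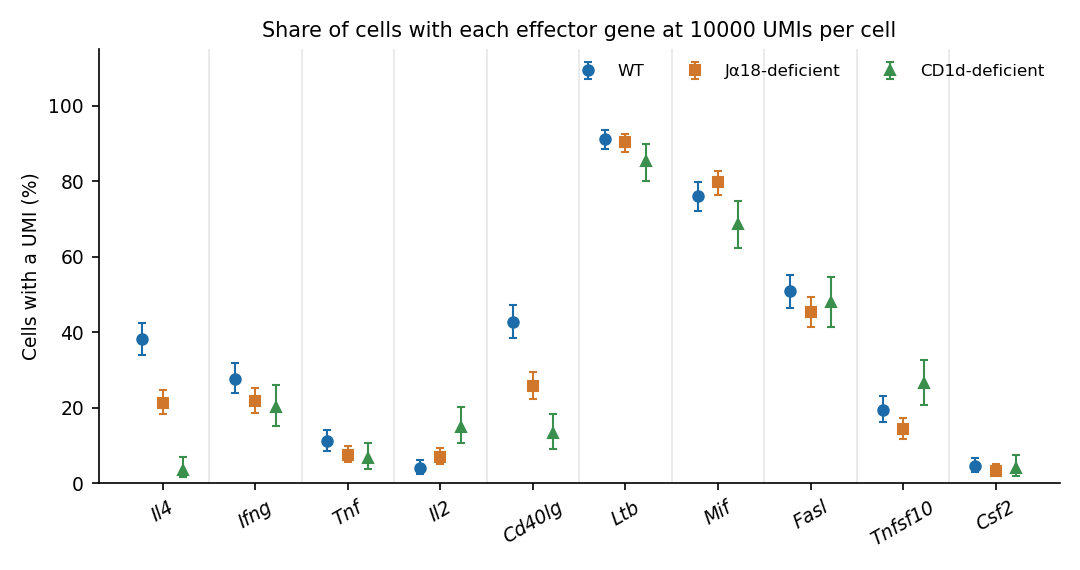
Share of cells with at least 1 UMI of each gene after thinning to 10000 UMIs per cell, in 523 WT, 632 Jα18-deficient and 227 CD1d-deficient cells, with exact Clopper-Pearson 95% intervals. The intervals of Il4 and of Cd40lg are apart between all 3 pools, and those of Ifng, Tnf, Fasl and Csf2 overlap between neighbouring pools.

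Read as ratios of CPM, a 2-fold difference was the mark for naming. None of the 10 genes passed it between Jα18-deficient and WT cells, where 14.0% of the 10267 genes that reached 100 UMIs in both pools together were at least 2-fold higher and 7.14% at least 2-fold lower. Il4 (ratio 0.504), Cd40lg (0.508) and Tnf (0.539) were just short of it. The median log2 ratio of all tested genes was 0.13 there and that of the members was -0.03, and with TMM scaling, which moved every log2 ratio by -0.12, those 3 genes passed. TMM scaling also brought the genes past 2-fold from 1442 higher and 733 lower to 1249 and 885. Between CD1d-deficient and WT cells, 1 of the 10 (Il2, 3.08-fold) was higher, beside 12.2% of 9447 genes, and 2 were lower, beside 12.3%. Cd40lg was 4.53-fold and Il4 4.23-fold lower. Between CD1d-deficient and Jα18-deficient cells, Tnf (2.14-fold) and Il2 (2.09-fold) were higher, beside 9.58% of 10042 genes, and Il4 (2.13-fold) and Cd40lg (2.30-fold) were lower, beside 17.8%. The 3 comparisons share pools. With TMM scaling the third one had Tnfsf10 past 2-fold as well and Il4 no longer (shift 0.09 on the log2 scale). The members' median log2 ratios were 0.02 and -0.18 in the last 2 comparisons, against 0.01 and -0.13 for all tested genes.

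Other cytokine genes were sparse in these cells. Of 29 soluble cytokine genes, 12 had no UMI in any cell, among them Il5, Il10, Il17a, Il17f, Il21 and Il22. A count of 0 allows up to 0.0880 CPM in the WT, 0.0496 CPM in the Jα18-deficient and 0.206 CPM in the CD1d-deficient pool (3 UMIs). Il13, the neighbour of Il4, had 32 UMIs in WT, 7 in Jα18-deficient and 0 in CD1d-deficient cells. The 5 soluble cytokine genes with the most UMIs were Hmgb1, Il16, Flt3l, Osm and Lta. Hmgb1, a nuclear protein that can be released as an alarm signal, was at 750.0, 785 and 797 CPM, and Il16, a chemoattractant of CD4 cells, at 205, 179 and 214 CPM. Lta, which shares its receptors with Tnf and forms heterotrimers with Ltb, was at 12.7, 9.94 and 29.6 CPM. In the tested part of this list, Tgfb1 was past 2-fold between Jα18-deficient and WT cells (1 of 7 tested) and Lta between CD1d-deficient and WT cells (1 of 5 tested), both higher. Between the 2 deficient pools, Lta was higher and Tgfb1 lower in CD1d-deficient cells (6 tested). The median log2 ratio of the tested list was 0.42, 0.41 and 0.14 in the 3 comparisons.

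Among 11 further TNF family ligands, Cd70, Tnfsf13 and Tnfsf18 had no UMI. Tnfsf14 (LIGHT) had the most, at 119, 88.7 and 94.0 CPM. Tnfsf8, the CD30 ligand, was at 6.22 CPM in WT, 29.3 CPM in Jα18-deficient and 30.6 CPM in CD1d-deficient cells, which was 4.71-fold and 4.92-fold above WT. Tnfsf15 was higher than in WT in Jα18-deficient cells (2 of 5 tested ligands with Tnfsf8). In CD1d-deficient cells Tnfsf9, the 4-1BB ligand, was higher than in WT and Tnfsf11 (RANKL) was lower (4 ligands tested, with Tnfsf8). Against Jα18-deficient cells, Tnfsf9 was higher and Tnfsf15 lower (5 tested). The medians of the list were 0.17, 0.91 and 0.06. Of 16 receptor genes of the members, Ifngr1, Il2rb and Il2rg had the most UMIs, at 483 to 750.2, 736 to 1119 and 745 to 987 CPM over the pools. Past 2-fold were Ifngr2 and Tnfrsf10b (higher) and Fas (lower) in Jα18-deficient against WT cells, of 13 tested. Cd74 (higher) and Il2ra (lower) were past it in CD1d-deficient against WT cells, of 12 tested, and also against Jα18-deficient cells, of 13. The medians of the receptor list were 0.41, 0.11 and 0.01. Il2ra, which completes the high affinity IL-2 receptor, stood at 39.6, 30.4 and 14.7 CPM, the reverse of the order of Il2. Cd74, the MIF receptor and a myeloid and B cell gene, stood at 9.71, 14.4 and 47.5 CPM beside the myeloid transcripts given above, and their part in its level was not tested.

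The members were next compared between classes of cells that the cytokine genes did not define. Cells with at least 2 UMIs of Cd8a plus Cd8b1, or of the 20 Ly49 receptor genes, formed the Cd8a/Ly49-positive class, and cells with none of them the Cd8a/Ly49-negative class. The negative class held 346 WT, 155 Jα18-deficient and 34 CD1d-deficient cells, which was 66.2%, 24.5% and 15.0% of the thinned cells, and the positive class held 103, 356 and 179. UMIs were summed per pool and class and tested with edgeR's quasi-likelihood test with a term for pool, so that the 3 pools served as replicates. Pools of different genotypes are not repeat samples of a condition, and with 3 of them only a difference that held across genotypes could be called.

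Il4 was higher in the Cd8a/Ly49-negative class in each pool, at 174 against 55.3 CPM in WT, 124 against 44.0 CPM in Jα18-deficient and 219 against 4.65 CPM in CD1d-deficient cells. The classes did not overlap. In the negative class the 3 pools were not in the order of the whole pools, and 272 of the 444 Il4 UMIs of CD1d-deficient negative cells were in 1 cell. The shares with Il4 were 43.4% against 21.4% in WT, 32.9% against 14.9% in Jα18-deficient and 17.6% against 1.12% in CD1d-deficient cells. After scaling, the means were 181 ± 62.9 and 33.8 ± 26.5 CPM (SD, n = 3 pools), and the log2 fold change was 2.75 ± 0.70 (SE) with an edgeR adjusted p of 0.196, so Il4 was not called. Its adjusted p ran from 3.84e-08 to 0.861 over 8 other settings, and it was past the threshold in 4 of them, with DESeq2 (0.000521), without the filter on low counts, without the WT pool and without the CD1d-deficient pool.

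Cd40lg was also higher in the Cd8a/Ly49-negative class in each pool, at 258 against 85.4 CPM in WT, 125 against 90.0 CPM in Jα18-deficient and 94.9 against 35.6 CPM in CD1d-deficient cells. In the CD1d-deficient negative class 111 of its 192 UMIs were in 1 cell. The shares with Cd40lg were 46.5% against 24.3% in WT and 36.1% against 19.1% in Jα18-deficient cells, with intervals apart. In CD1d-deficient cells they were 20.6% against 11.7%, with overlapping intervals. The log2 fold change of Cd40lg was 1.24 ± 0.35 with an edgeR adjusted p of 0.285 (range 0.0304 to 0.895 over 8 other settings, past the threshold with DESeq2, with thinned sums and without the CD1d-deficient pool). Ltb (0.59 ± 0.16, adjusted p 0.268), Fasl (0.60 ± 0.23, 0.640) and Csf2 (1.53 ± 0.97, 0.903) had log2 fold changes of the same sign by edgeR and higher CPM in the negative class in 3 of 3 pools. In the CD1d-deficient negative class 1 cell held 381 of 750 Fasl UMIs and 1 cell held 15 of 19 Csf2 UMIs. Shares with Fasl were 52.0% against 45.6% in WT, 45.8% against 45.5% in Jα18-deficient and 41.2% against 49.7% in CD1d-deficient cells. For Ltb they were 93.4% against 80.6%, 89.7% against 89.9% and 85.3% against 86.6%. The share with Csf2 was higher in the negative class of each pool. Tnfsf10 was lower in the negative class in 3 of 3 pools (-0.94 ± 0.41, edgeR adjusted p 0.772). The positive class holds both Cd8a-positive cells and cells with Ly49 alone. The 231 Jα18-deficient cells with Ly49 alone had Tnfsf10 at 44.5 CPM, below the 54.4 CPM of the negative class. In WT and CD1d-deficient cells that subset was above the negative class, at 112 against 56.8 CPM and 79.8 against 37.5 CPM. Il2 was lower in the negative class of WT (7.11 against 49.3 CPM) and Jα18-deficient cells (5.18 against 30.9 CPM), and at 40.0 against 41.1 CPM in CD1d-deficient cells, where 79 of the 81 UMIs of the negative class were in 1 cell. Its edgeR adjusted p was 0.750, and without the CD1d-deficient pool it was 0.0226 (range 0.0226 to 0.999 over 8 other settings). Ifng was at 109 against 129 CPM in WT, 71.8 against 110.1 CPM in Jα18-deficient and 115.1 against 109.7 CPM in CD1d-deficient cells (log2 fold change -0.18 ± 0.33, edgeR adjusted p 0.968). In CD1d-deficient cells these Ifng intervals overlapped, and 128 of the 233 UMIs of the negative class were in 1 cell. Shares with Ifng were 23.7% against 34.95% in WT, 15.5% against 26.1% in Jα18-deficient and 26.5% against 20.1% in CD1d-deficient cells. The intervals of these shares overlapped in each pool. Tnf and Mif went different ways in different pools.

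**Figure D3:**
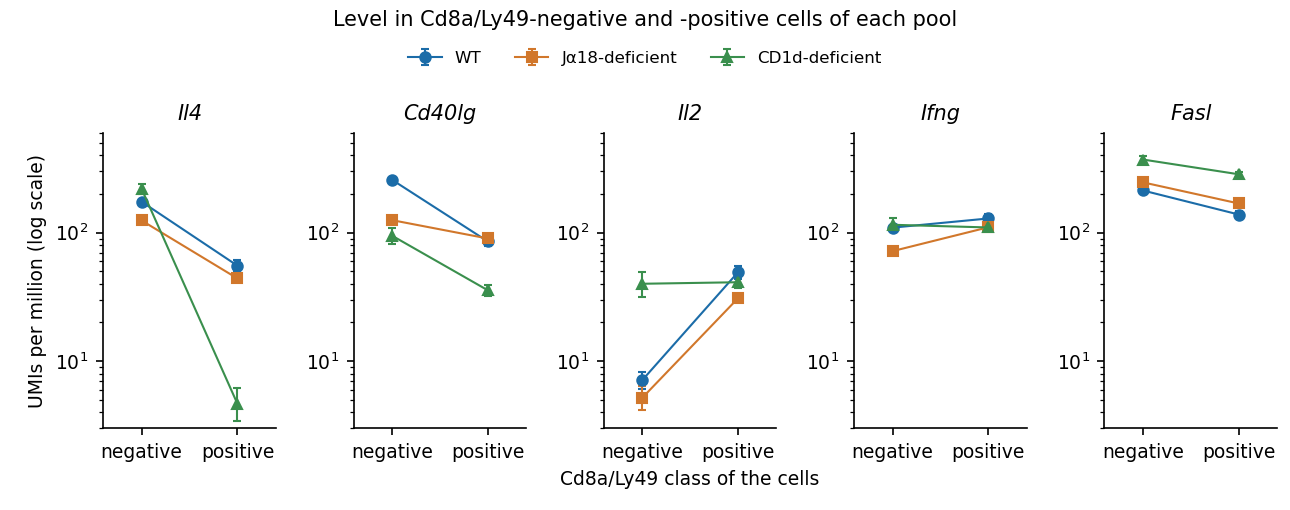
Level of 5 genes in Cd8a/Ly49-negative and Cd8a/Ly49-positive cells of each pool, as CPM of the class on a log axis, with exact Poisson 95% intervals. Lines join the classes of a pool. Il4, Cd40lg and Fasl are higher in the negative class of each pool, Il2 is lower in WT and Jα18-deficient cells, and Ifng is lower in WT and Jα18-deficient but not in CD1d-deficient cells. The CD1d-deficient negative class has 34 cells. Its highest cell for each gene held 272 of 444 (Il4), 111 of 192 (Cd40lg), 79 of 81 (Il2), 128 of 233 (Ifng) and 381 of 750 (Fasl) UMIs.

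In this comparison edgeR called 0 of the 10 genes, beside 0.369% of 10038 genes, and 6 of the 10 had an unadjusted p under 0.05, as had 600 of all genes. DESeq2 called 2 members, Il4 and Cd40lg, beside 157 of the 10038 genes. The median log2 fold change was 0.27 for the members and -0.06 for all genes. The class also moved with depth, since the median cell had 54691 against 44257 UMIs in WT, 73236 against 58206 in Jα18-deficient and 45500 against 35954 in CD1d-deficient cells, and its part in the levels was not tested. The shares of cells are at equal depth.

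Within the Cd8a/Ly49-negative class, cells with at least 2 UMIs of Cd4 were set against cells with none. The CD1d-deficient pool had 1 Cd4-positive cell, which left 2 pools. Il4 stood at 197 CPM in 75 Cd4-positive and 156 CPM in 236 Cd4-negative WT cells, and at 281 CPM in 18 and 80.7 CPM in 127 Jα18-deficient cells. It was found in 54.7% (interval 42.7% to 66.2%) against 41.1% (34.8% to 47.7%) of WT cells and in 55.6% (30.8% to 78.5%) against 28.3% (20.7% to 37.0%) of Jα18-deficient cells. The intervals overlapped in both pools, and 251 of the 442 UMIs of the Jα18-deficient Cd4-positive class were in 1 cell. The log2 fold change was 1.23 ± 0.48 with an edgeR adjusted p of 0.9998. edgeR called 0 of the 10 genes, beside 0.0104% of 9590 genes, and DESeq2 called 0 as well, beside 3 of the 9590. At an unadjusted p under 0.05 there was 1 member, Il4, and 303 genes in all.

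Cells with more than 1 effector transcript were counted next. Ltb and Mif, found in most cells, were set aside, and the other 8 genes were counted per cell at 10000 UMIs. Cells with at least 2 of the 8 made up 62.5% in WT (interval 58.2% to 66.7%), 44.9% in Jα18-deficient (41.0% to 48.9%) and 40.5% in CD1d-deficient mice (34.1% to 47.2%). None was found in 9.75%, 21.7% and 18.9% of cells, and 5 or more in 11 of 523, 6 of 632 and 1 of 227. In this count the WT interval was apart from those of both other pools, which overlapped. Il4 and Cd40lg were each found in more WT cells as well. The counts that the shares of the single genes alone would give were not worked out, so joint expression was not tested here. Within the Cd8a/Ly49-negative class the shares with at least 2 were 63.6%, 47.7% and 38.2%.

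**Figure D4:**
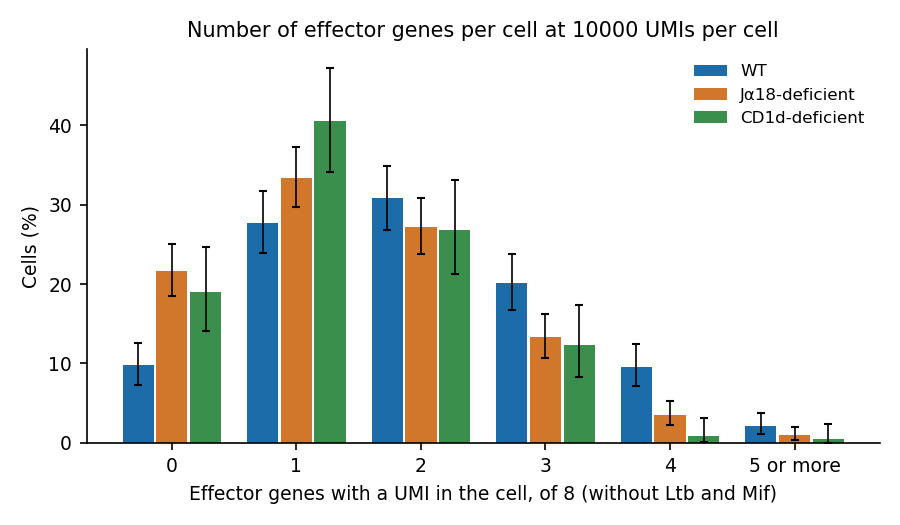
Number of 8 effector genes (all but Ltb and Mif) with a UMI in a cell thinned to 10000 UMIs, as a percent of the cells of each pool, with exact Clopper-Pearson 95% intervals. WT bars are higher from 2 genes on, and the bars at 4 genes stand at 9.56% (WT), 3.48% (Jα18-deficient) and 0.881% (CD1d-deficient).

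Il4, Ifng and Cd40lg occurred in all combinations in WT cells. Of 523 cells, 77 held Il4 alone among the 3, 48 Ifng alone and 99 Cd40lg alone, while 35 held Il4 with Ifng, 63 Il4 with Cd40lg, 37 Ifng with Cd40lg, 25 all 3 and 139 none. In Jα18-deficient cells 60 of 632 held Il4 alone, 20 Il4 with Ifng, 41 Il4 with Cd40lg and 14 all 3, and 308 held none. In CD1d-deficient cells 153 of 227 held none and 0 held all 3 (upper Clopper-Pearson limit 1.61%). Ifng was found in 60 of the 200 WT cells with Il4 (interval 23.7% to 36.9%) and in 26.3% of those without it (21.6% to 31.5%), and in Jα18-deficient cells in 25.2% and 20.9%. The intervals overlapped in both pools.

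Il4 and Cd40lg shared 88 of 523 cells in the WT pool, 55 of 632 in the Jα18-deficient pool and 1 of 227 in the CD1d-deficient pool. Cd40lg was in 40.7% of Jα18-deficient cells with Il4 (55 of 135, interval 32.4% to 49.5%) and in 21.7% of those without it (18.2% to 25.6%). In WT cells the shares were 44.0% (interval 37.0% to 51.2%) and 42.1% (36.7% to 47.7%). Within the Cd8a/Ly49-negative class of Jα18-deficient cells the shares were 41.2% (interval 27.6% to 55.8%) and 33.7% (24.7% to 43.6%), which overlapped. The difference between pools was not tested.

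**Figure D5:**
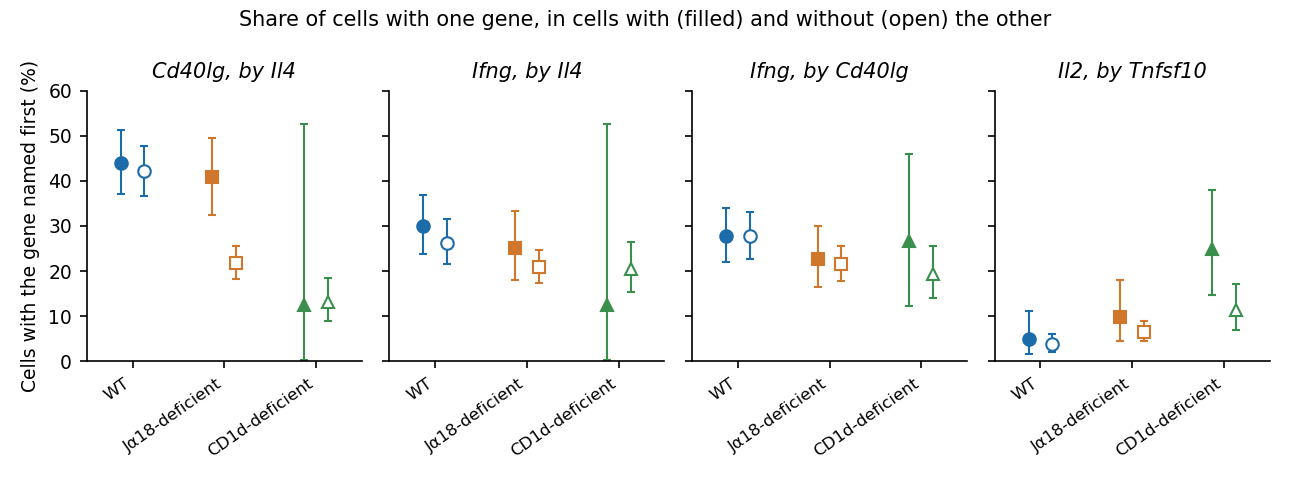
Share of thinned cells with the gene named first in each panel, in cells with (filled) and without (open) the gene named after it, for each pool, with exact Clopper-Pearson 95% intervals. Cd40lg by Il4 in Jα18-deficient cells, at 40.7% against 21.7%, is the only pair shown whose intervals are apart.

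Among members with a share of 5% or more, this was the only pair whose intervals were apart at 10000 UMIs and over all cells of a pool: 0 of 28 pairs in WT, 1 of 36 in Jα18-deficient and 0 of 28 in CD1d-deficient cells. The share of the second gene was higher beside the first in 22, 24 and 13 of these pairs. The widest gap in CD1d-deficient cells was Tnfsf10 with Il2, where Tnfsf10 was in 44.1% of cells with Il2 (interval 27.2% to 62.1%) and 23.3% of those without (17.5% to 29.9%). In WT cells Mif was in 87.9% of cells with Tnf and 74.6% of those without. The lower limit of the first share, 76.7%, was below the upper limit of the other, 78.5%. Within the Cd8a/Ly49-negative class of Jα18-deficient cells, Tnfsf10 was apart, in 25.5% of cells with Il4 (13 of 51, interval 14.3% to 39.6%) and 6.73% of those without (7 of 104, 2.75% to 13.4%). At 20000 UMIs per cell, Fasl was also apart beside Il4 in Jα18-deficient cells, at 66.7% against 49.3%, and so was Ltb in WT cells, at 98.5% against 92.5%. Ltb and Tnf, the neighbours on chromosome 17, were found together in 56 of the 58 WT cells with Tnf, where Ltb was in 90.5% of cells without Tnf.

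Cells with the most of a cytokine show the range behind these shares. The WT cell with the most Il4 had 202 UMIs of it among 271196, along with 218 of Ifng, 353 of Cd40lg and 166 of Fasl. The next one had 194 of Il4 and 227 of Ifng and none of Cd40lg. In the Jα18-deficient pool the highest cell had 445 UMIs of Il4 and 131 of Ifng, and in the CD1d-deficient pool 272 of Il4 and none of Ifng, Tnf, Il2 or Cd40lg. The WT cell with the most Csf2 had 84 UMIs of it and 110.0 of Il4. The CD1d-deficient cell with the most Il2 had 79 UMIs of it, 67 of Il4 and 111 of Cd40lg.

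Cells with Il4 were described by other markers. Ly49 transcripts were in 40 of 200 WT cells with Il4 and in 113 of the 323 others, in 60.7% against 75.3% of Jα18-deficient cells and in 2 of 8 against 79.0% of CD1d-deficient cells. Cd4 was in 33.5% against 24.1% of WT and 19.3% against 9.66% of Jα18-deficient cells, and Zbtb16 in 14.0% against 13.6% and 9.63% against 7.85%. Il4 was in 37.8% of WT cells with Lyz2 (interval 30.2% to 45.9%) and 38.4% of those without (33.4% to 43.6%), and in 24.6% and 20.99% of Jα18-deficient cells. In the CD1d-deficient pool all 8 cells with Il4 had Lyz2, as had 92.2% of the others. Those 8 cells had a median of 1067 genes after thinning, against 1562 in the others. Their median depth before thinning was 106362 UMIs, against 38200.

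Immediate early genes, which can mark recent activation, were set beside the cytokines. The summed level of 10 of them was 720.0 CPM in WT, 849 CPM in Jα18-deficient and 882 CPM in CD1d-deficient cells. Cells with Ifng held on average 7.50 UMIs of these genes against 6.26 in WT, 8.49 against 7.38 in Jα18-deficient and 12.3 against 8.35 in CD1d-deficient cells. For Cd40lg the means were 6.03 against 7.03, 6.74 against 7.93 and 9.17 against 9.16, and for Il4 7.39 against 6.12 in WT and 8.59 against 7.36 in Jα18-deficient cells. The 8 CD1d-deficient cells with Il4 went the other way, with a mean of 5 against 9.31. Medians for Il4 were 5 against 4 in WT and 5 against 5 in Jα18-deficient cells. For Ifng they were 5 against 4, 6 against 5 and 9 against 5. Means were also higher in each pool with Il2 and with Tnfsf10, at 9.89 against 7.45 and 9.46 against 7.31 in Jα18-deficient cells. For Il2 the gap was small in WT, at 6.90 against 6.59 over 21 cells with Il2. The medians for Il2 were 4 against 5 in WT, 7 against 5 in Jα18-deficient and 6.5 against 6 in CD1d-deficient cells. For Tnf, Fasl and Csf2 the means went different ways between pools. Among the early genes Fos was more than 2-fold higher in both deficient pools than in WT cells and Egr2 lower in Jα18-deficient cells, of 8 tested, and Jun was higher in CD1d-deficient cells than in both others. The medians were 0.27, 0.21 and -0.07. Genes whose counts ran with a member across cells were sought by the smallest of the 3 within-pool correlations over 5488 genes and the 1382 thinned cells. None reached the r of 0.2 set for naming, for any of the 6 members found in at least 10% of the cells of each pool, and the highest value was 0.16, for Ltb.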

How the data were processed

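UMI counts per gene and cell were deposited by the authors without normalization. The methods name Cutadapt 1.15 for trimming, TopHat 2.0.12 for alignment to mm9 and HTSeq 0.10.0 for counting after duplicates were removed by UMI. Their stated filter starts at 10000 transcripts, but 353 cells below it are in the matrix and stay in the CPM of a pool. No column was left without a genotype, no barcode was shared, and doublets were not called, because cells were picked by hand.

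Levels are summed UMIs per 1000000 (CPM) with exact Poisson intervals, and shares have exact Clopper-Pearson intervals (95%). Cells were thinned at random to 10000 UMIs (seed 20). Class sums had at least 5 cells and were tested with edgeR 4.0.16 (quasi-likelihood, TMM, filterByExpr, Benjamini-Hochberg over all genes tested), after the script was tested on simulated data. Genes were called at the study's thresholds, an adjusted p below 0.05 with a fold change past 0.25 on the natural log scale, and the 25 genes of the planned gates were left out of counts. A further class comparison is not reported here. The alternatives used DESeq2 1.42.0, other filters, gates, depths and left-out pools. Python 3.11.15, scipy 1.17.1 and R 4.3.3 were used.

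The members, lists, gates and tests were chosen with earlier results of these data known. The genes named are the 10 members, genes of the fixed lists that were past 2-fold or among the 5 of their list with the most UMIs, and genes with an r of at least 0.2 to a member. Gene positions are from the NCBIM37 annotation, and promoters, of GRCm38.p6, were used for sequence only.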

Additional observations from a re-analysis of the deposited data

Results flagged for a closer look

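With 1 pool per genotype, differences between genotypes in a class contrast were not tested. The following went opposite ways in different pools, with the counting intervals of the classes apart in each pool named. Log2 ratios of CPM are given. Tnf in Cd8a/Ly49-negative over positive cells was 0.59 in WT, -2.005 in Jα18-deficient and -2.32 in CD1d-deficient cells, with 144 of the 338 UMIs of the CD1d-deficient positive class in 1 cell. Mif in the same contrast was -0.26, 0.18 and -0.30. In Cd4-positive over Cd4-negative cells, Ifng was -1.09 in WT and 0.45 in Jα18-deficient cells, where 112 of 137 UMIs of the positive class were in 1 cell. Cd40lg was -0.28 and 0.66, Mif was 0.14 and -0.45, and Tnfsf10 was -0.87 and 1.84, where 205 of 248 UMIs of the Jα18-deficient positive class were in 1 cell.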

How the results depend on the processing

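No paired analysis was possible because the labels number the libraries within each genotype but the cells carry no library number. The members past 2-fold were 0 between Jα18-deficient and WT cells, but 2 in Cd8a/Ly49-negative cells alone, 2 without the highest cell of each gene and 3 with TMM or DESeq2 size factors. Between CD1d-deficient and WT cells they were 3 under all 8 alternatives, but in Cd8a/Ly49-negative cells Tnf (6.42 against 30.1 CPM) took the place of Il4, and in positive cells Fasl (284 against 138 CPM) that of Il2. Between CD1d-deficient and Jα18-deficient cells they were 4, but 2 with each cell weighted equally, 1 in Cd8a/Ly49-negative cells, 2 in Cd8a/Ly49-positive cells, 3 without the highest cell (Tnf lost, at 25.7 against 13.3 CPM) and 5 in cells of at least 10000 UMIs (with Csf2). In Cd8a/Ly49-negative cells the log2 ratio of Il4 was 0.33 for CD1d-deficient over WT and 0.82 over Jα18-deficient cells, the reverse of the pools. There 272 of the 444 Il4 UMIs of the CD1d-deficient class were in 1 cell. The shares with Il4 in this class kept the order of the pools, at 43.4% (WT), 32.9% (Jα18-deficient) and 17.6% (CD1d-deficient). Intervals of neighbouring shares overlapped. In Cd8a/Ly49-positive cells the log2 ratio of Il2 for CD1d-deficient over WT was -0.26. Genes called between Cd8a/Ly49 classes went from 37 to 157 with DESeq2, 113 without the filter, 21 without the pool term, 20 with a gate at 1 UMI, 65 with thinned sums and 30 to 104 with a pool left out. Members called went from 0 to 2 (Il4 and Cd40lg) with DESeq2, 2 (Il4 and Ltb) without the filter, 1 (Cd40lg) with thinned sums and 0 to 3 with a pool left out (Il4 without WT, and Il4, Cd40lg and Il2 without the CD1d-deficient pool). With a pool left out, the log2 fold change of Ifng ran from -0.39 to 0.0081 (without the Jα18-deficient pool) and that of Mif from -0.19 to 0.10 (without WT). Between Cd4 classes the 1 called gene became 3 with DESeq2, 0 without the pool term, 0 with a gate at 1 UMI and 3 with thinned sums, and members stayed at 0. Leaving out a pool could not be fitted there. The share of cells with at least 2 of 8 members was higher at more depth, going from 62.5% to 72.4% at 20000 UMIs and 77.0% unthinned in WT, from 44.9% to 56.5% and 73.4% in Jα18-deficient and from 40.5% to 50.6% and 53.7% in CD1d-deficient cells. Unthinned, Ifng was in 47.4% of WT cells with Il4 against 33.0% of those without. The cause of these changes was not tested.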
